A study of Sus scrofa with 6 samples.

Results

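Activins are secreted dimers of inhibin beta subunits, and the 10 genes described here encode 2 of those subunits, INHBA and INHBB, with their antagonists, their receptors and a set of related regulators. They were taken from the table of 14262 genes by their symbols, and all 10 had a row: the ligand genes INHBA, INHBB and GDF15, the antagonists FST and FSTL3, the receptors ACVR1B, ACVR2A and ACVR2B, the inhibitory SMAD gene SMAD7 and the SMAD-responsive gene ID4. The set was put together with the contrast between the groups already known. Its differences between groups are therefore given as a description, without p-values, and nothing is supported with them.

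The samples were endometrium, the inner lining of the uterus, from 6 pregnant sows of the Chinese Erhualian breed (Sus scrofa) on day 12 of gestation. There were 3 high prolific and 3 low prolific sows, 1 RNA-seq library each, named here high 1 to 3 and low 1 to 3. Parity, counted in litters, was 5 in high 1, 8 in high 2 and high 3, 7 in low 1 and low 2, and 5 in low 3. No treatment or genotype is labelled, all sows share breed, tissue and day, and how prolificacy was scored is not given in the sources used here.

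In the activin pathway a ligand dimer binds the type II receptors ACVR2A or ACVR2B, which recruit the type I receptor ACVR1B, and this phosphorylates SMAD2 and SMAD3. Follistatin, the product of FST, and the related FSTL3 bind activins and keep them from the receptors, while SMAD7 is induced by the pathway and blocks it inside the cell. In the endometrium activins are made by epithelium and stroma and are known for their part in stromal differentiation. GDF15 is a distant, stress-induced relative that signals through GFRAL, and ID4 is one of the ID proteins, which lack a DNA-binding domain and hold basic helix-loop-helix (bHLH) factors inactive.

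Values are the authors' normalized read counts per gene. The columns summed to between 22663087 (high 2) and 24270245 (low 2), which reflects the normalization and not the depth, so the depth behind each value is unknown. Log2 differences are high minus low prolific on log2(value + 1), with limma's moderated standard error (SE). That scale understates differences of low genes. Over the whole table limma called 0 genes at an adjusted p under 0.05 (0% of those tested), with 1129 at an unadjusted p under 0.05. The first principal component, 43.6% of the variance, set low 2 and low 3 apart from the other 4 sows. Markers of epithelium (8 of 10 measured), stroma (9 of 10), endothelium (6 of 8) and smooth muscle (7 of 8) were present in every library. In bulk tissue fewer cells of a type and less RNA per cell cannot be told apart.

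Of the 10 members, 3 had a higher and 7 a lower mean in the high prolific group, with a median log2 difference of -0.08 against -0.0024 over all genes. The groups did not overlap in 4 members, GDF15 and ID4 upward and INHBA and INHBB downward. In the whole table they did not overlap in 13.5% of genes, 7.18% upward and 6.32% downward. Since the members were chosen on this contrast, nothing is read from their count.

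**Figure D1:**
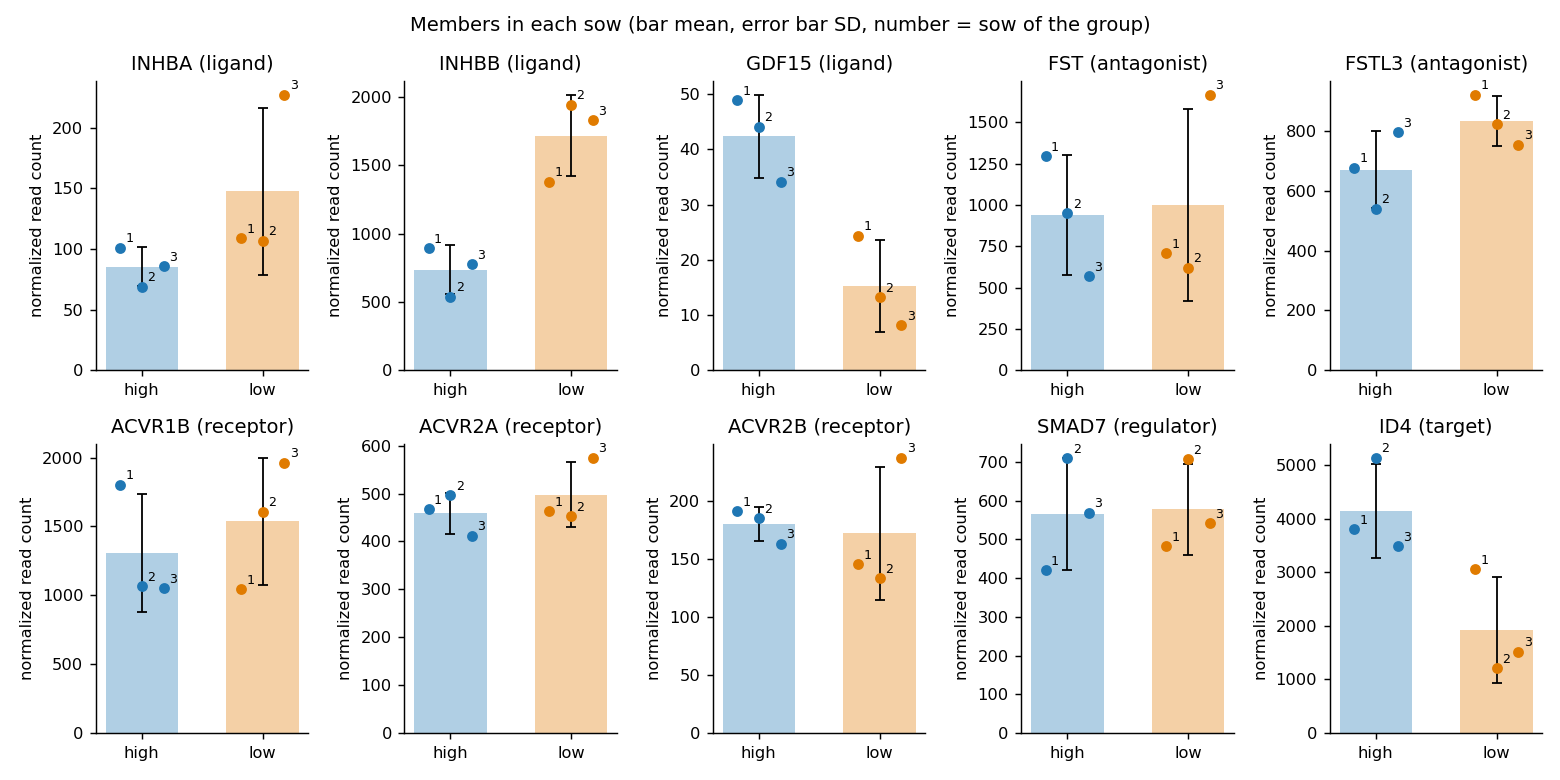
Normalized read counts (linear axes from 0) of the 10 members in blue for high and orange for low prolific sows, with bars for means of 3 sows, error bars for SD and a numbered point for each sow. INHBB lies between 538.9 and 893.2 in the high group and between 1380 and 1944 in the low group, while FST and SMAD7 spread over the same range in both groups.

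INHBB (ENSSSCG00000038610), the subunit of activin B, was at 893.2, 538.9 and 775.6 in high 1 to high 3 and at 1380, 1944 and 1833 in low 1 to low 3. Each low prolific sow lay above each high prolific sow, and the lowest low sow was 1.54 times the highest high sow. The means were 736 ± 180 and 1719 ± 299 (SD, n = 3), 2.36-fold lower in high prolific sows, with a log2 difference of -1.24 ± 0.23 (SE). This gap was the widest of the non-overlapping members, and INHBB had the smallest within-group spread of those 4, an SD of 0.32 in log2 units against a median of 0.23 over all genes. Without both low 2 and low 3 the difference was -0.94.

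INHBA (ENSSSCG00000035077), the subunit of activin A, was at 100.8, 68.68 and 85.96 in high 1 to high 3 and at 108.7, 106.8 and 227 in low 1 to low 3. The groups only just failed to overlap, since low 2 lay 1.06 times above high 1, and low 3 stood well above the other 5 sows. The log2 difference was -0.71 ± 0.35 (SE), with means of 85.2 ± 16.1 and 147 ± 68.9 (SD, n = 3). Leaving out low 3 gave -0.35, and leaving out low 2 as well gave -0.37.

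GDF15 (ENSSSCG00000034260) was at 48.85, 44.13 and 34.16 in high 1 to high 3 and at 24.33, 13.25 and 8.183 in low 1 to low 3. All high prolific sows lay above all low prolific sows, with the lowest high sow 1.40 times the highest low sow. The means were 42.4 ± 7.5 and 15.3 ± 8.26 (SD, n = 3), a log2 difference of 1.53 ± 0.43 (SE), the largest in size among the members. These values stand near the bottom of a table whose smallest gene mean was 17.6, so counting error can be large, and its size is not known. With a pseudocount of 10 the difference was 1.09, and without both low 2 and low 3 it was 0.76.

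ID4 (ENSSSCG00000024312) was at 3806, 5141 and 3481 in high 1 to high 3 and at 3053, 1206 and 1515 in low 1 to low 3. Low 1 came close to the high prolific sows, which started 1.14 times above it, while low 2 and low 3 lay far below. The log2 difference was 1.20 ± 0.36 (SE), a 2.30-fold higher level in high prolific sows (4143 ± 879 against 1925 ± 989, SD, n = 3). It was 0.42 without both low 2 and low 3, and 1.59 without low 1.

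The differences of all 4 non-overlapping members were thus smaller in size without low 2 and low 3, the pair apart on the first principal component. They were 0.42 for ID4, 0.76 for GDF15, -0.94 for INHBB and -0.37 for INHBA. With all sows they were 1.20, 1.53, -1.24 and -0.71, in that order. Cell type markers differed between the sows as well. The neutrophil markers, 4 of 8 measured, summed to between 276 and 9139 in the high group and between 11666 and 23295 in the low group, without overlap. Within that list S100A8 reached 5414 in low 2 and 10857 in low 3 against at most 713 elsewhere, whereas MMP8 was at 11244 in low 1 and 1706 in low 3. CSF3R lay the other way, at 385, 102 and 152 in the high and 168, 44.3 and 199 in the low group. The score of the list, its mean log2 value with each gene centred on its mean over the sows, overlapped, at 0.87 in high 1 and -0.28 in low 1. The endothelial markers summed to 8984 to 14042 in the high and 11817 to 21986 in the low group, and all 6 measured lay lower in high prolific sows. The smooth muscle markers, 6 of 7 lower in high prolific sows, overlapped in their sum (21666 to 28506 against 21901 to 31160) but not in their score. That score was 0.017, -0.86 and -0.20 in high 1 to high 3 and 0.19, 0.59 and 0.27 in low 1 to low 3. ACTA2 was at most 4881 in the high and at least 6676 in the low group. DES, ACTG2 and CNN1 did not overlap either, while SMTN and LMOD1 did. MYH11 lay the other way and overlapped, at 13483, 21899 and 11627 in the high and 16882, 13364 and 7666 in the low group. The lymphocyte markers, 6 of 7 higher in high prolific sows, overlapped in their sum and just missed doing so in their score, whose lowest high value was -0.092 and highest low value -0.097. Markers of epithelium, stroma, macrophages and red cells overlapped in both sum and score. So did the 4 of 8 conceptus markers with a row, while CYP19A1 and IFNG of that list matched none. The epithelial list was split, with KRT7, KRT8, KRT18, FOXA2 and ESRP1 lowest in low 2 and low 3. KRT8 was at 14061 in low 2 and 11217 in low 3 against at least 19084 elsewhere. CLDN4 lay the other way, at 14154 and 9094 in these sows against at most 8175 elsewhere, and EPCAM and CDH1 followed neither order. The part of these cell types in the differences was not tested.

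The antagonists did not separate the groups. FST (ENSSSCG00000016892), follistatin, was at 1293, 950.2 and 567.5 in high 1 to high 3 and at 706.3, 619.3 and 1666 in low 1 to low 3. High 1 and low 3 held the highest levels, and the ranges of the groups overlapped almost wholly. The log2 difference was -0.02 ± 0.46 (SE) and turned positive under both other scalings, at 0.01 with columns centred on their median and 0.02 with a common column sum. The within-group SD of 0.69 log2 units was wider than that of 92.0% of all genes. FSTL3 (ENSSSCG00000037102) was at 677, 539.8 and 797.1 in high 1 to high 3 and at 921.6, 823.5 and 754.3 in low 1 to low 3. Only high 3 and low 3 were out of order between the groups, and the log2 difference was -0.32 ± 0.17 (SE).

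The receptor genes overlapped between the groups in each case. ACVR1B (ENSSSCG00000000233), the type I receptor of activin, was at 1804, 1067 and 1053 in high 1 to high 3 and at 1044, 1607 and 1962 in low 1 to low 3. High 1, low 2 and low 3 were high and the other 3 sows lay between 1044 and 1067. The log2 difference of -0.23 ± 0.30 (SE) turned to 0.28 without both low 2 and low 3. ACVR2A (ENSSSCG00000015669) was the steadiest member, between 412.2 and 496.8 in the high group and between 453.1 and 575.5 in the low group, with a log2 difference of -0.11 ± 0.15 (SE). ACVR2B (ENSSSCG00000011257) was at 191.3, 185.3 and 163.1 in high 1 to high 3 and at 145.3, 133.2 and 237.4 in low 1 to low 3. Low 3 alone put the low group across the high group, and the log2 difference of 0.11 ± 0.25 (SE) was 0.37 without low 3 and -0.05 without low 2.

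SMAD7 (ENSSSCG00000004507), the intracellular brake, was at 420.2, 710.5 and 569.5 in high 1 to high 3 and at 482.5, 707.9 and 542.7 in low 1 to low 3. Both groups covered nearly the same range, and the log2 difference was -0.04 ± 0.24 (SE), with a value of 0.0035 under a common column sum. SMAD7 is both an inhibitor and a transcriptional target of the pathway.

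**Figure D2:**
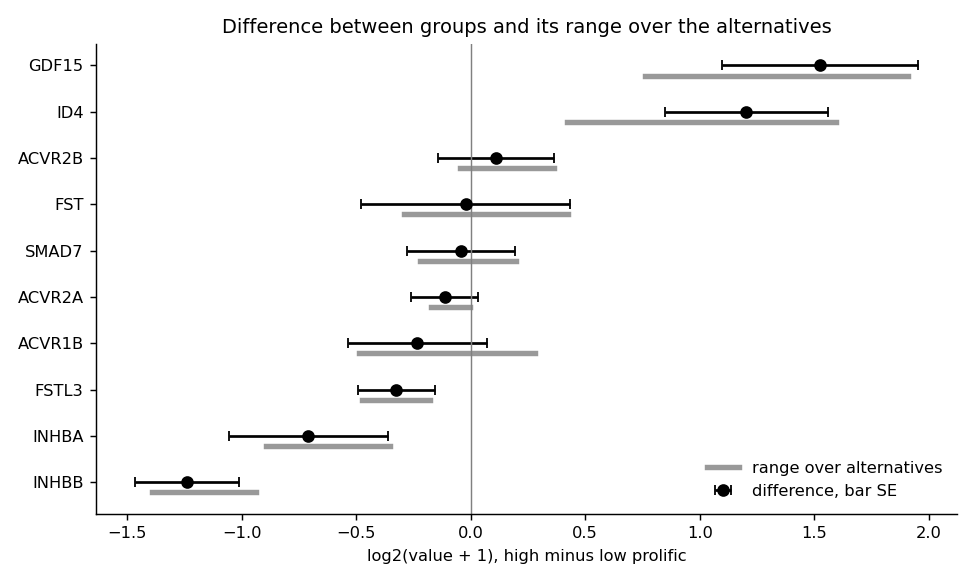
Log2 difference, high minus low prolific, of each member (x axis, log2 of value + 1), with points for the 6-sow value, black bars for its SE and grey bars for the range over the alternative analyses. GDF15, ID4, FSTL3, ACVR2A, INHBA and INHBB keep their sign over the grey bar, while the bars of FST, SMAD7, ACVR1B and ACVR2B cross 0.

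Ratios within a sow show how the members changed relative to each other. They are not scaled for gene length and are compared only between sows. The INHBB to FST log2 ratio was -0.53, -0.82 and 0.45 in high 1 to high 3 and 0.97, 1.65 and 0.14 in low 1 to low 3. Its means were -0.30 ± 0.66 and 0.92 ± 0.76 (SD, n = 3), and high 3 lay above low 3, so the groups overlapped although INHBB itself did not. The INHBB to INHBA log2 ratio was tight in the high group (3.08 ± 0.11, SD, n = 3) and wide in the low group (3.61 ± 0.58), from 3.01 in low 3 to 4.17 in low 2. Low 2 and low 3 thus had similar INHBB and differed in the balance of the subunit transcripts. The INHBA to FST log2 ratio was -3.67 in high 1, -3.77 in high 2 and -2.71 in high 3, against -2.87 to -2.52 in low prolific sows. High 3, the high prolific sow with the least FST, lay within the low prolific range.

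**Figure D3:**
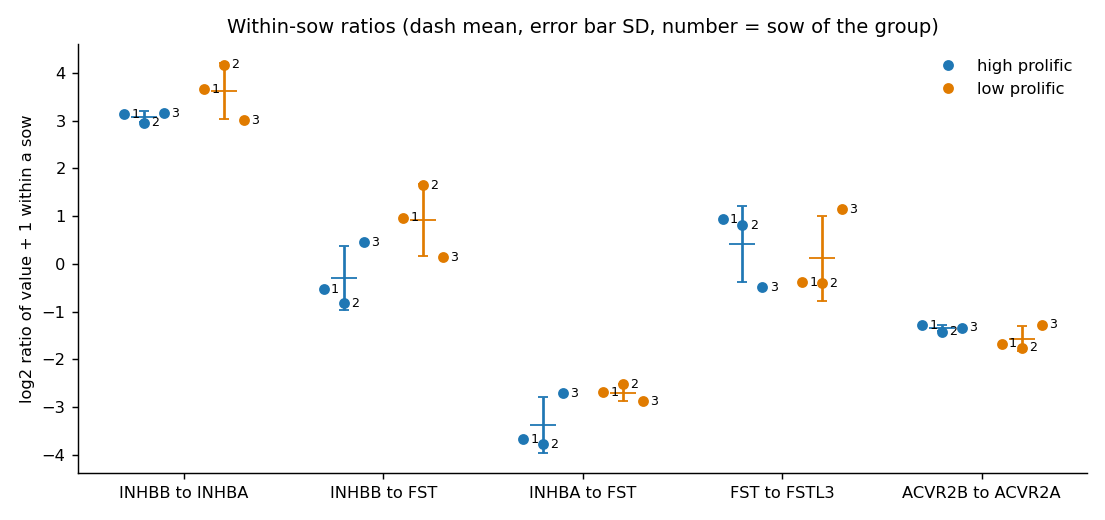
Log2 ratio of 2 members within each sow (y axis, log2 units) for 5 pairs, in blue for high and orange for low prolific sows, with dashes for means, error bars for SD and a numbered point for each sow. The groups overlap in all 5 pairs, and INHBB to INHBA ranges from 3.01 to 4.17 among low prolific sows.

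Parity is a label that the choice of members did not use. High 1 and low 3, the sows of parity 5, held the highest levels of FST, ACVR1B and ACVR2B (3 of 10 members), a pattern seen upward in 11.1% of all genes. The plot of members against parity was made after these values were seen. High 1 and low 3 also had the highest stroma marker scores, 0.12 and 0.34 against at most 0.0027 elsewhere. Of that list PDGFRA, VIM and HOXA10 were highest in high 1 and low 3, and the other measured genes were not. Of the endothelial list CDH5, TEK and ERG were also highest in high 1 and low 3, and PECAM1, KDR and TIE1 were not. The endothelial score was 0.74 in low 3, but at 0.13 in high 1 it lay below low 2, at 0.18. The part of stroma or endothelium in the parity pattern was not tested. Within a group, parity only set high 1 apart from high 2 and high 3, or low 3 apart from low 1 and low 2. Slopes per litter therefore rest on high 1 and low 3 and cannot show a graded trend. In a limma fit with group and parity together, FST had a slope of -0.39 ± 0.12 log2 units per litter (SE, limma adjusted p = 0.448), which did not pass. The slope of ACVR1B was -0.27 ± 0.07 (limma adjusted p = 0.421), and that of INHBA -0.25 ± 0.11 (limma adjusted p = 0.547). Those of the other 7 members lay between -0.15 and 0.15. Among all genes 0% passed for parity and 9.42% had an unadjusted p under 0.05, 6.48% with a falling slope. ACVR1B and FST were the 2 members of 10 in that range, both with a falling slope. Without low 3 the slope of INHBA was -0.13 and that of FST -0.27, and without high 1 they were -0.53 and -0.67. With parity in the fit the INHBB difference between groups was -1.15, that of GDF15 1.47 and that of ID4 1.14, while FST went from -0.02 to 0.24.

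**Figure D4:**
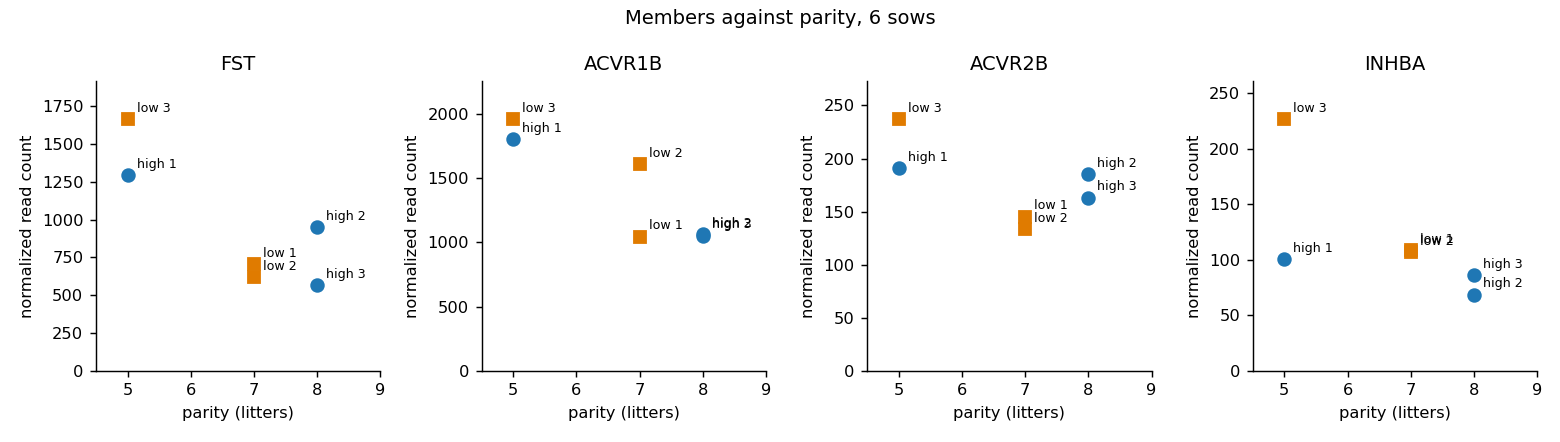
Normalized read counts (y axes from 0) of FST, ACVR1B, ACVR2B and INHBA against parity in litters (x axis), 1 point per sow, with circles for high and squares for low prolific sows. High 1 and low 3, at parity 5, are the top sows for FST (1293 and 1666), ACVR1B (1804 and 1962) and ACVR2B (191.3 and 237.4), but for INHBA high 1 (100.8) lies below low 1 (108.7).

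The rest of the pathway was followed in 8 lists of 119 genes, of which 85 had a row. None of the 85 passed over all genes. With limma 12 of them, or 14.1%, had an unadjusted p under 0.05 against 7.92% of the table, 6 in each direction (3.83% of the table upward and 4.09% downward). Their limma adjusted p lay between 0.619 and 0.629. The groups did not overlap in 10.6% of them against 13.5% of the table. The median log2 difference was -0.0039 over the 85 genes.

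Among the 12 other measured ligand genes none had an unadjusted limma p under 0.05. GDF9 averaged 606 ± 63.3 in the high and 493 ± 59.7 in the low group (SD, n = 3), without overlap. Its gap was narrow, from 529.1 in low 1 to 535.3 in high 3. TGFB1 was at 723 ± 51.2 against 946 ± 254, BMP7 at 111 ± 31.3 against 199 ± 94.1 and TGFB3 at 392 ± 210 against 556 ± 211. INHA, which encodes the alpha subunit of inhibin, INHBC and INHBE matched no row and were not analysed here.

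Among the 12 other measured receptors and co-receptors, 2 had an unadjusted limma p under 0.05, both lower in high prolific sows. RGMA, a BMP co-receptor, was at 923 ± 97.1 against 1265 ± 70.3 (SD, n = 3), without overlap. ENG, endoglin, a TGF-beta co-receptor of endothelium, was at 2907, 2494 and 2339 in high 1 to high 3 and at 2821, 4572 and 4971 in low 1 to low 3. Its log2 difference of -0.64 shrank to -0.13 when both low 2 and low 3 were left out. ACVRL1, the endothelial type I receptor, followed the same sows, and its difference went from -0.49 to -0.09. Both went with the endothelial marker sum given above, whose part was not tested. RGMB lay the other way, at 319 ± 58 against 254 ± 49.5. GFRAL, through which GDF15 signals, matched no row and was not analysed here.

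Among the 10 other measured antagonists 3 had an unadjusted limma p under 0.05. FSTL1, a secreted follistatin-like glycoprotein, was at 9839, 5951 and 6999 in high 1 to high 3 and at 10720, 11850 and 10620 in low 1 to low 3, a log2 difference of -0.57 ± 0.20 (SE). It thus lay lower in high prolific sows as FSTL3 did, and here without overlap. CHRD, chordin, which binds BMPs, was at 313 ± 57.3 against 448 ± 96.7 (SD, n = 3), also without overlap. TWSG1, a BMP-binding partner of chordin, lay the other way, at 5473 ± 1143 against 3876 ± 586. NBL1, a BMP antagonist, was at 17409 ± 1246 against 14391 ± 3713.

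Of the 13 genes of latency and cleavage, 2 had an unadjusted limma p under 0.05, and they encode binding proteins of latent TGF-beta with opposite directions. LTBP3 was higher in high prolific sows (2078 ± 158 against 1678 ± 160, SD, n = 3) and LTBP1 lower (1872 ± 86 against 2383 ± 363), both without overlap. For LTBP1 the gap was narrow, from 1950 in high 1 to 1964 in low 1. The LTBP1 difference of -0.34 was -0.07 without both low 2 and low 3. BMP1, a procollagen and latency protease, was at 1132 ± 210 against 1399 ± 231, and the related TLL2 ranged from 232.6 to 3425 over the 6 sows.

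The SMADs and their partners had 19 measured genes, 2 of them with an unadjusted limma p under 0.05 and both higher in high prolific sows. NEDD4L, a ubiquitin ligase that turns over activated SMAD2 and SMAD3, was at 6786, 8626 and 8866 in high 1 to high 3 and at 5371, 6254 and 4822 in low 1 to low 3. SMAD1, which carries BMP signals, was at 1670 ± 201 against 1357 ± 66.7 (SD, n = 3). Neither overlapped between the groups, though for SMAD1 only just, with low 1 at 1419 and high 1 at 1442. SMAD9, of the same BMP branch, was at 463 ± 70.4 against 351 ± 86.6. SMAD3, which carries activin signals, was at 5796, 3174 and 3032 in high 1 to high 3 and at 4036, 6348 and 6937 in low 1 to low 3. High 1, low 2 and low 3 were the high sows, the same that were high in ACVR1B.

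Of the 6 measured SMAD targets, 5 lay higher in high prolific sows. Among them ID2 and ID3, relatives of ID4, lay higher without separating the groups. ID2 was at 5767, 5642 and 3847 in high 1 to high 3 and at 4876, 1253 and 2975 in low 1 to low 3, and its log2 difference of 0.93 was 0.04 without both low 2 and low 3. ID3 was at 1924 ± 281 against 1538 ± 239 (SD, n = 3). All 3 measured ID genes were lowest in low 2. TGFBI was at 499 ± 103 against 551 ± 112. ID1 matched no row and was not analysed here.

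The stress-response genes, to which GDF15 belongs by its known induction, did not share a direction, with 4 of 8 higher. SESN2, a sestrin of the same stress programmes, was at 1244 ± 136 against 834 ± 128 (SD, n = 3) and did not overlap. ASNS, asparagine synthetase, lay the other way, at 243 ± 42.5 against 425 ± 127, and its log2 difference of -0.77 was -0.23 without both low 2 and low 3. CDKN1A was at 319 ± 47.4 against 248 ± 54.8 and PPP1R15A at 1005 ± 272 against 1317 ± 264. ATF4 and DDIT3 of the stress list matched no row and were not analysed here. The 5 measured bHLH genes, among them the partners that ID proteins bind, had no unadjusted limma p under 0.05. Of these, TCF3 was at 1668 ± 138 against 1519 ± 49.4, TCF4 at 2143 ± 126 against 2539 ± 702, HES1 at 456 ± 9.35 against 423 ± 133 and TWIST2 at 225 ± 72.6 against 266 ± 80.2.

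**Figure D5:**
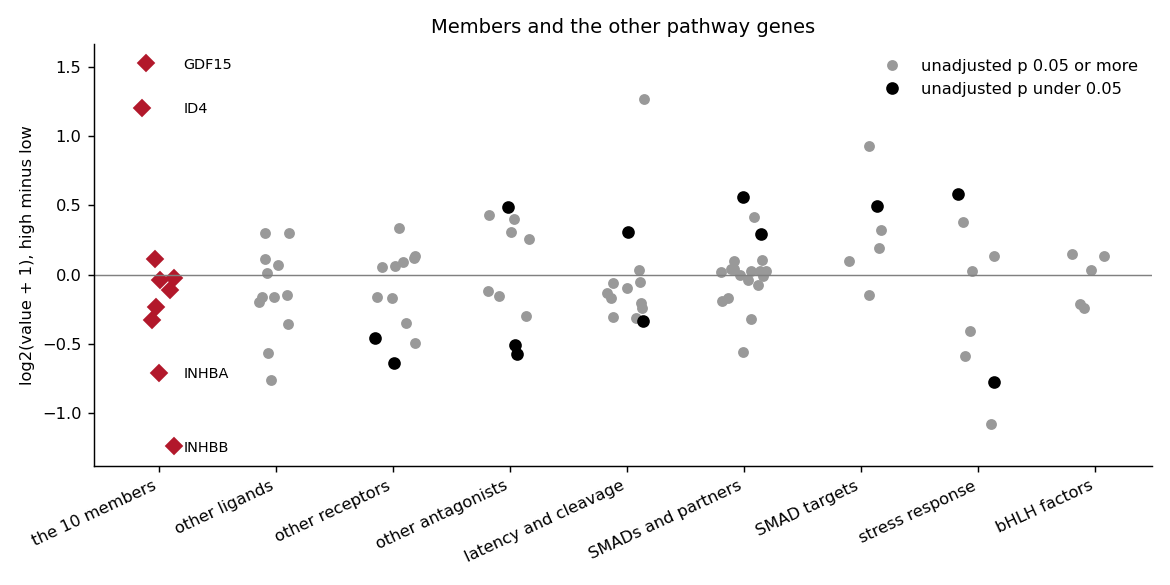
Log2 difference, high minus low prolific (y axis, log2 of value + 1), of the 10 members (diamonds) and of the other measured genes of 8 pathway lists (circles, black where the unadjusted limma p is under 0.05). GDF15 (1.53) and ID4 (1.20) lie above and INHBB (-1.24) below most other genes drawn, and none of the circles passed over all genes.

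For the 4 members with the largest differences, the genes most like them were found by Pearson's r of log2 values over the 6 sows, among 11336 or 11337 named genes with a mean of at least 50. These values are descriptions over sows that share their groups, with no test. Nearest to INHBB were VCAN, the matrix proteoglycan versican (r = 0.994), WFDC1 (0.994) and FLNA, filamin A (0.993). VCAN was at 1902, 1297 and 1577 in high 1 to high 3 and at 2706, 3861 and 3777 in low 1 to low 3, the order of the sows in INHBB. Nearest to ID4 were GLMN (r = 0.998), C14orf132 (0.996) and PRPF40B (0.994), of which C14orf132 had a log2 difference of 0.99 and the others 0.21 and 0.20. Nearest to GDF15 were DMD, dystrophin (0.995), MTERF2 (0.994) and IKZF4 (0.994), with much smaller log2 differences of 0.28, 0.22 and 0.40. Nearest to INHBA were CHIC2 (0.995), ROBO4, an endothelial guidance receptor (0.990), and TTC7B (0.988), each highest in low 3. An r of at least 0.95 was reached by 73 genes for INHBB, 98 for ID4, 39 for GDF15 and 45 for INHBA.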

How the data were processed

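Endometrial RNA of 6 sows was sequenced, 1 library per sow. The authors deposited 1 table of normalized read counts, a signal that is never negative and not whole. Per the submitters' processing notes, Subread 1.6, featureCounts and edgeR were used, with no roles stated. The kind of normalization, genome build and strand setting are not given in the sources used here. No coordinates are therefore printed. A single step per library made 40.9% (high 2) to 100% (high 3) of the values under 20 whole, to a tolerance of 0.1, so the reads could not be rebuilt and count models were not used. Low genes were absent, and requiring a value of 10 in 3 libraries dropped 0 genes. Reads of overlapping genes or near-identical copies may have been split or dropped. Symbols matched 11977 of 14262 identifiers, and members were matched by symbol.

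The comparison used limma 3.58.1 (R 4.3.3) and log2(value + 1), with robust moderation along a variance trend, two-sided tests and p-values adjusted by Benjamini-Hochberg over 14262 genes. The procedure was tested on simulated data. The members, lists and alternatives were chosen with earlier results of these data known. Named genes were the members, up to 4 genes per pathway list by unadjusted p, and the 3 genes most correlated with each of the 4 members of largest difference; markers and a few absent genes were named after values were seen. A result on 1 gene of the pathway lists is not reported here.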

Additional observations from a re-analysis of the deposited data

How the results depend on the processing

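Under 16 alternative settings (pseudocount, scaling, filters, moderation, parity, a block, library weights, left-out sows), 231 of 234 recomputed differences and ratios of the members moved by less than 1 within-group SD. The 3 that moved further were those of GDF15, ID4 and ACVR1B without both low 2 and low 3. Most of the 234 were bound to stay within that limit, so the count is no measure of robustness. The block, the moderation setting and both filters repeat the 6-sow value of each gene kept, as for INHBB at -1.24. Library weights left the ratios unchanged, as for INHBB to FST at -1.22. Leaving out 1 of 3 sows always moves a difference by less than 1 within-group SD. Keeping genes with a mean of 200 or more dropped GDF15, INHBA and ACVR2B, so 2 members whose groups do not overlap remained, against 4. That number was 4 to 6 with 1 sow left out and 7 without both low 2 and low 3, which leaves a single low prolific sow. The share of all genes without overlap also grew, from 13.5% to between 17.3% and 31.3% with 1 sow left out and to 50.9% with both. It has no value under moderation, parity, block or weights, which leave the levels as they are. FST changed sign in 7 settings, SMAD7 in 5 and ACVR1B and ACVR2B in 1 each.

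The whole table gave 0 to 4 called genes with 1 sow left out (4 without low 1, 1 without low 2), and none of them was a gene of the pathway lists. Genes at an unadjusted p under 0.05 numbered 466 (without high 2) to 1872 (without low 1), and 631 with both low 2 and low 3 left out. The pathway lists gave 4 (without high 2 or low 2) to 18 (without low 1) such genes, against 12, and 3 without both low 2 and low 3. Replicate numbers are shared between groups. Same-numbered sows deviated in opposite directions (r = -0.38, -0.16 and -0.36 across genes), and 0 of 6 libraries correlated best with their own number. The sows were therefore not treated as pairs. With 3 sows per group these values cannot tell whether same-numbered sows were handled together. With the replicate block 615 genes of the table and 6 of the lists had an unadjusted p under 0.05, and no gene passed adjusted. Of 511 recomputed values of the named pathway genes 6 turned: TGFBI to 0.039 without high 2 and 0.015 without low 3 (-0.24 to 0.039 with 1 sow left out), HES1 to -0.023 without low 2 (-0.023 to 0.39) and -0.33 with both low 2 and low 3 left out, and TCF4 to 0.0047 without low 3 (-0.33 to 0.0047) and 0.031 with both left out. The cause was not tested. The 511 include values under the block, the moderation setting and the filters, which repeat the 6-sow difference and could not turn. The parity slopes of FST, ACVR1B and INHBA kept their sign under the alternatives chosen after seeing the data. Depth is unknown, which limits GDF15 most.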
